A study of Danio rerio and Xiphophorus maculatus with 12 samples.

Results

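Collagen is hydroxylated, folded and trimmed by a small set of dedicated proteins before it becomes a fibre, and 10 genes for such proteins were followed in the hearts of zebrafish and platyfish, a livebearing teleost. They were the lysyl hydroxylase genes plod1a, plod2 and plod3, the prolyl 4-hydroxylase alpha subunit genes p4ha1a, p4ha1b and p4ha2, the prolyl 3-hydroxylase complex genes p3h1 and crtap, the procollagen chaperone gene serpinh1b and the procollagen C-proteinase enhancer gene pcolcea. The members were taken by gene symbol, ignoring case, and all 10 were found once in each species, among 32520 genes of the zebrafish table and 24209 of the platyfish table. The study compared wild-type adult ventricles that had not been manipulated with ventricles taken on day 7 after cryoinjury, in which local freezing destroys part of the heart muscle, and the atrium and bulbus arteriosus had been removed. There were 12 libraries in 4 groups of 3, zebrafish uninjured, zebrafish cryoinjured, platyfish uninjured and platyfish cryoinjured, with 8 ventricles pooled for each library and therefore n = 3 pools in every group.

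Fibrillar collagen chains enter the endoplasmic reticulum as procollagen. Prolyl 4-hydroxylases modify prolines there, which makes the triple helix stable at body temperature, and lysyl hydroxylases modify lysines, which later carry sugars and cross-links. In mammals PLOD2 modifies the lysines of the telopeptides, the short ends outside the helix, and this directs the lysyl oxidases towards the stable cross-links that are typical of scar collagen. The complex of P3H1, CRTAP and cyclophilin B modifies single prolines and helps folding, the chaperone HSP47, encoded by serpinh1 genes, binds the folded helix until it leaves the endoplasmic reticulum, and outside the cell procollagen C-proteinase enhancers speed the removal of the C-terminal propeptide. In the injured zebrafish heart fibrillar collagen is made mainly by fibroblasts and cells derived from the epicardium.

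Library totals were 20735097 to 27994535 counts in zebrafish and 19073562 to 31148127 in platyfish. Zebrafish cryoinjured replicates 2 and 3 held counts for 16530 and 15976 genes, fewer than the 18102 to 18819 genes of the other zebrafish libraries, and 3 zebrafish libraries correlated more closely across genes with a library of the other group than with one of their own. The highest r with the other group and the lowest within the group were 0.962 and 0.941 for cryoinjured replicate 1, 0.943 and 0.936 for cryoinjured replicate 2, and 0.961 and 0.959 for uninjured replicate 2. The cardiomyocyte markers of the ventricle were abundant in every library, at a summed 40685 to 67668 CPM, counts scaled to a fixed library total. Levels are given as normalised counts, that is counts divided by the effective library size of a species and brought to its mean. They can be compared between libraries of one species, but not between species or, as no gene length enters, between genes. Nothing in the labels ties the pools to separate clutches or days beyond a batch field that repeats the replicate number, so the p-values measure the spread between these pools.

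In platyfish 2 of the 10 genes were higher after cryoinjury at an adjusted p under 0.05, plod2 by 6.44-fold and pcolcea by 4.75-fold, where 3.92% of the 15226 genes tested were called in either direction. In zebrafish 1 of the 9 tested genes passed, serpinh1b, higher by 2.37-fold, against 0.98% of 13470 genes, and plod2 was at 0.945-fold there, with a 95% interval of 0.711 to 1.26. Zebrafish p4ha1a had too few counts to be tested. The difference between the responses of the 2 species passed its own test for plod2, 1 of 9 genes, against 2.49% of 8098 genes. The 10 genes were chosen with earlier results of these data known. Shares and medians set beside those of all genes, here and below, are therefore descriptive only.

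**Figure D1:**
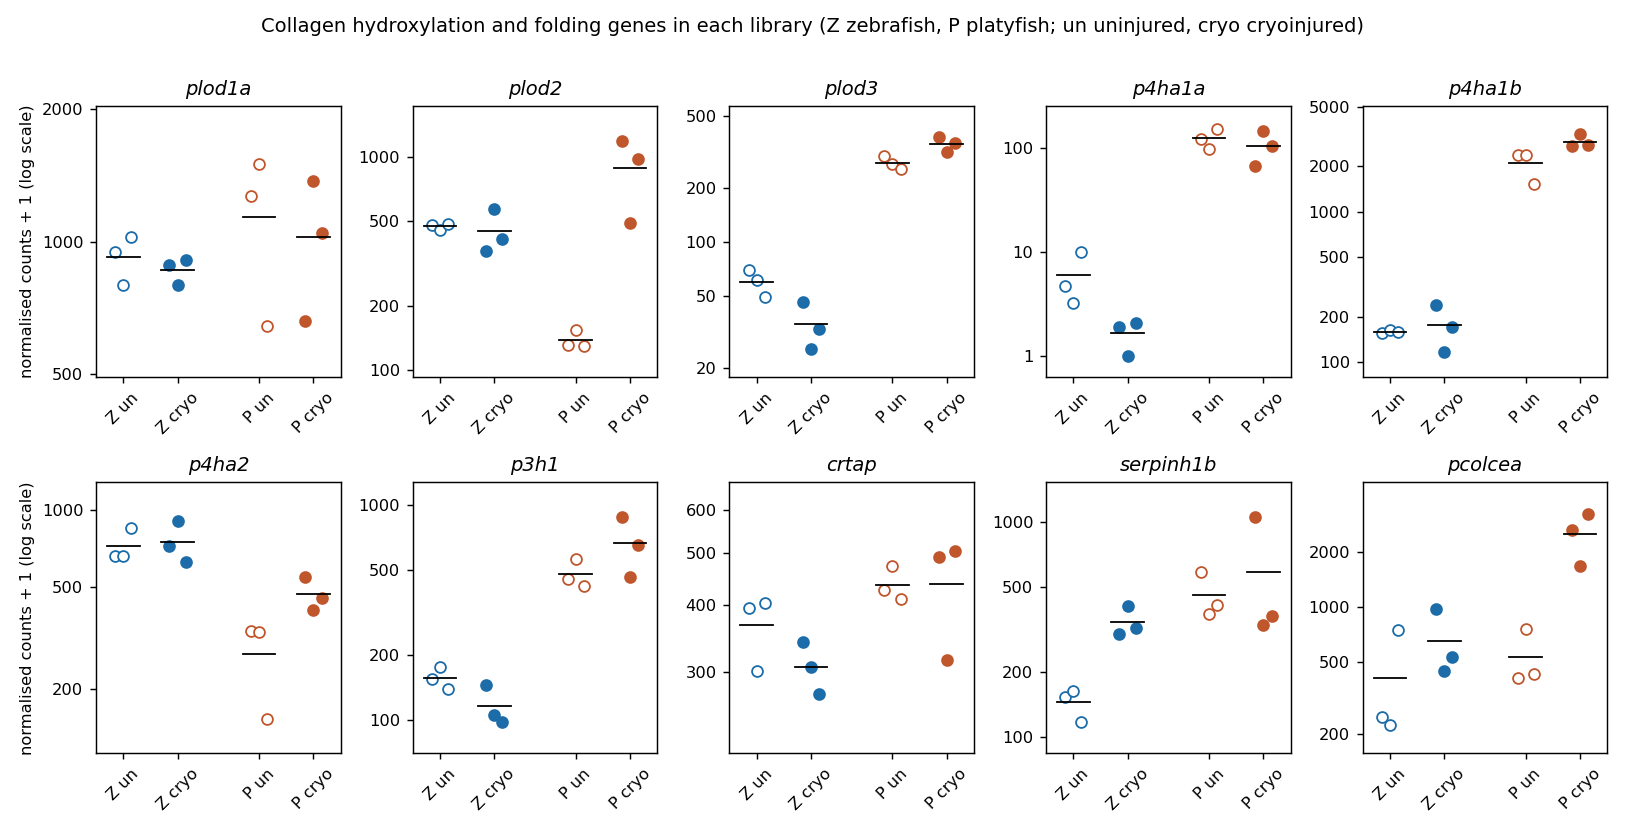
Normalised counts plus 1 (log axis) of each of the 10 genes in each of the 12 libraries, with open points for uninjured and filled points for cryoinjured pools, blue for zebrafish and orange for platyfish, and a bar at the mean of 3 pools. The species were scaled separately, so that heights compare only within a species. The platyfish groups do not overlap for plod2, plod3, p4ha1b, p4ha2 and pcolcea, with the cryoinjured pools higher. The zebrafish groups do not overlap for serpinh1b, with the cryoinjured pools higher, or for plod3 and p4ha1a, with them lower. Zebrafish p4ha1a lies near 0 and was not tested.

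The lysyl hydroxylase gene plod2 (ENSXMAG00000009123, chromosome 21 of the platyfish table) stood at 130.2, 152 and 128 normalised counts in the uninjured platyfish pools and at 1188, 486 and 974 in the cryoinjured ones. Every cryoinjured pool lay above every uninjured pool, and replicate 2 was the lowest of the cryoinjured ones. This corresponded to a log2 fold change of 2.69 ± 0.32 (SE), a 6.44-fold difference with a 95% interval of 3.90 to 10.6 and an adjusted p of 0.00989 by edgeR's quasi-likelihood test with Benjamini-Hochberg adjustment. In the zebrafish pools plod2 (ENSDARG00000011821, chromosome 24) stood at 476, 453 and 483 normalised counts without injury and at 359.7, 567 and 408 after it. These groups overlapped, with 2 cryoinjured pools below and 1 above all uninjured pools (log2 fold change -0.08 ± 0.18, adjusted p = 0.870 by edgeR's test). In bulk tissue a change in the number of cells that express a gene and a change of its RNA per cell cannot be told apart, here and in every result that follows. Leaving out platyfish uninjured replicate 1 left the platyfish value at 2.64 with an adjusted p of 0.0589; it passed in the other 11 alternatives.

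The other lysyl hydroxylase genes did not pass the test in either species. For plod3, whose mammalian enzyme also attaches the sugars to hydroxylysine, the uninjured zebrafish pools held 68.6, 60.5 and 48.6 normalised counts and the cryoinjured pools 45.3, 24.4 and 31.8. The groups did not overlap and the cryoinjured pools were the lower ones, but the log2 fold change of -0.80 ± 0.39 (SE) had an adjusted p of 0.358 by edgeR's test. In platyfish plod3 stood at 299.9, 269 and 255 without injury and at 382, 315 and 354 after it. Here too the groups did not overlap, with the cryoinjured pools higher, and the log2 fold change of 0.35 ± 0.15 had an adjusted p of 0.199 by the same test. The gene plod1a, whose mammalian enzyme modifies lysines inside the helix, overlapped between groups in both species, at 795 to 1026 normalised counts over the 6 zebrafish pools and at 641 to 1497 over the 6 platyfish pools. Its log2 fold changes were -0.10 ± 0.14 in zebrafish and -0.15 ± 0.35 in platyfish, with adjusted p-values of 0.777 and 0.829 by edgeR's test.

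The prolyl 4-hydroxylase alpha subunits are the catalytic chains of an enzyme that is completed by protein disulfide isomerase (p4hb). Of the alpha subunit genes p4ha1a, p4ha1b and p4ha2, none was called in either species. The further alpha subunit gene p4ha3, which was called in platyfish, is described below among the partners. The platyfish p4ha1b pools stood at 2375, 2373 and 1535 normalised counts without injury and at 2727, 3282 and 2773 after it. The platyfish p4ha2 pools stood at 337, 333 and 152 without injury and at 548, 407 and 453 after it. In both genes the groups did not overlap, the cryoinjured pools were higher, and uninjured replicate 3, the library with the fewest counts, was the lowest pool. The log2 fold changes were 0.48 ± 0.19 (SE) for p4ha1b and 0.77 ± 0.29 for p4ha2, with adjusted p-values of 0.169 and 0.150 by edgeR's test. In zebrafish both genes overlapped between groups: p4ha1b stood at 155, 164 and 157 without injury and at 239, 117 and 169.7 after it, and p4ha2 at 662, 658 and 851 and at 722, 902 and 623. Their log2 fold changes were 0.15 ± 0.27 (adjusted p = 0.836 by edgeR's test) and 0.05 ± 0.17 (adjusted p = 0.921). The closely related p4ha1a had few counts in zebrafish, with 4, 2 and 9 raw counts in the uninjured pools and 1, 0 and 1 in the cryoinjured ones. It failed the filter on low counts, so that it had no test in zebrafish or between species, and its adjusted p without the filter was 0.584. In platyfish p4ha1a was measured at 123, 97.1 and 152 normalised counts without injury and at 66.1, 147 and 103 after it, with overlapping groups (log2 fold change -0.23 ± 0.31, adjusted p = 0.690 by edgeR's test). Reads that fit p4ha1a and p4ha1b alike could be counted for either copy or be left out, and the same holds for serpinh1a and serpinh1b. With the counts of both p4ha1 copies added, the log2 fold change was 0.11 in zebrafish and 0.45 in platyfish, and neither passed. Adding the copies does not restore reads that were left out.

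The prolyl 3-hydroxylase complex gave no call. In platyfish p3h1, its catalytic subunit, stood at 453, 560.0 and 421 normalised counts without injury and at 882, 462 and 656 after it. Cryoinjured replicate 2 lay within the uninjured range and the other two lay above it (log2 fold change 0.48 ± 0.23 SE, adjusted p = 0.245 by edgeR's test). In zebrafish p3h1 stood at 154, 176 and 139 without injury and at 144, 105 and 96.3 after it, where replicate 1 lay within the uninjured range (-0.44 ± 0.25, adjusted p = 0.436 by edgeR's test). Its non-catalytic partner crtap had the smallest platyfish response of the 10 genes, with 425, 470.1 and 409.6 normalised counts in the uninjured pools and 489.5, 314 and 503 in the cryoinjured ones. The log2 fold change of 0.00 ± 0.19 had a 95% interval of -0.44 to 0.44. In zebrafish crtap ranged from 272 to 401 normalised counts over the 6 pools, with overlapping groups and a log2 fold change of -0.26 ± 0.18 (adjusted p = 0.538 by edgeR's test).

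The chaperone gene serpinh1b (ENSDARG00000019949, chromosome 15), which encodes the HSP47 protein, stood at 153, 164 and 117 normalised counts in the uninjured zebrafish pools and at 302, 405 and 321 in the cryoinjured ones. All 3 cryoinjured pools lay above all 3 uninjured pools. On the log2 scale the difference was 1.25 ± 0.21 (SE), with a 95% interval of the fold change of 1.71 to 3.29 and an adjusted p of 0.0258 by edgeR's test. The call was lost in edgeR's test when uninjured replicate 1 was left out (1.28, adjusted p = 0.0928), uninjured replicate 3 (1.11, adjusted p = 0.0991), cryoinjured replicate 2 (1.11, adjusted p = 0.141) or cryoinjured replicate 3 (1.29, adjusted p = 0.0801). In platyfish serpinh1b (ENSXMAG00000001370, chromosome 18) stood at 584, 372 and 408 without injury and at 1049, 331 and 364 after it. Only cryoinjured replicate 1 was high, and the other 2 cryoinjured pools lay below all uninjured pools. The log2 fold change of 0.35 ± 0.46 had an adjusted p of 0.678 by edgeR's test and became -0.39 without cryoinjured replicate 1. The same library also had the highest summed level of other procollagen chaperones, at 1040 CPM against 817 and 806 in the other cryoinjured platyfish pools, and of smooth muscle, bulbus and atrium markers, at 436 CPM against 210.1 and 205; the part of these in the value of that pool was not tested. The second copy, serpinh1a, had log2 fold changes of 0.48 ± 0.25 in zebrafish and 0.27 ± 0.13 in platyfish, with adjusted p-values of 0.392 and 0.231 by edgeR's test.

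Outside the cell, the enhancer of C-propeptide removal pcolcea (ENSXMAG00000000354, chromosome 11 of the platyfish table) stood at 403, 751 and 425 normalised counts in the uninjured platyfish pools and at 2610.3, 1671 and 3229.7 in the cryoinjured ones. The groups were well apart, and replicate 2 was again the lowest cryoinjured pool. The log2 value of 2.25 ± 0.32 (SE) corresponded to a 4.75-fold difference with a 95% interval of 2.86 to 7.90 and an adjusted p of 0.0174 by edgeR's test. Adding the block of replicate numbers gave 2.27 and an adjusted p of 0.0563 by edgeR's test. In edgeR's test the call was also lost without uninjured replicate 1 (2.08, adjusted p = 0.0646), without cryoinjured replicate 1 (2.22, adjusted p = 0.0645) and without cryoinjured replicate 3 (2.01, adjusted p = 0.0591). In zebrafish pcolcea (ENSDARG00000056913, chromosome 10) was the most variable of the 9 tested genes, at 248, 223 and 745 without injury and at 973, 444 and 529.9 after it. Uninjured replicate 3 stood well above the other two uninjured pools and above 2 of the cryoinjured ones. The log2 fold change of 0.68 ± 0.56 had an adjusted p of 0.619 by edgeR's test and a 95% interval of -0.67 to 2.04.

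**Figure D2:**
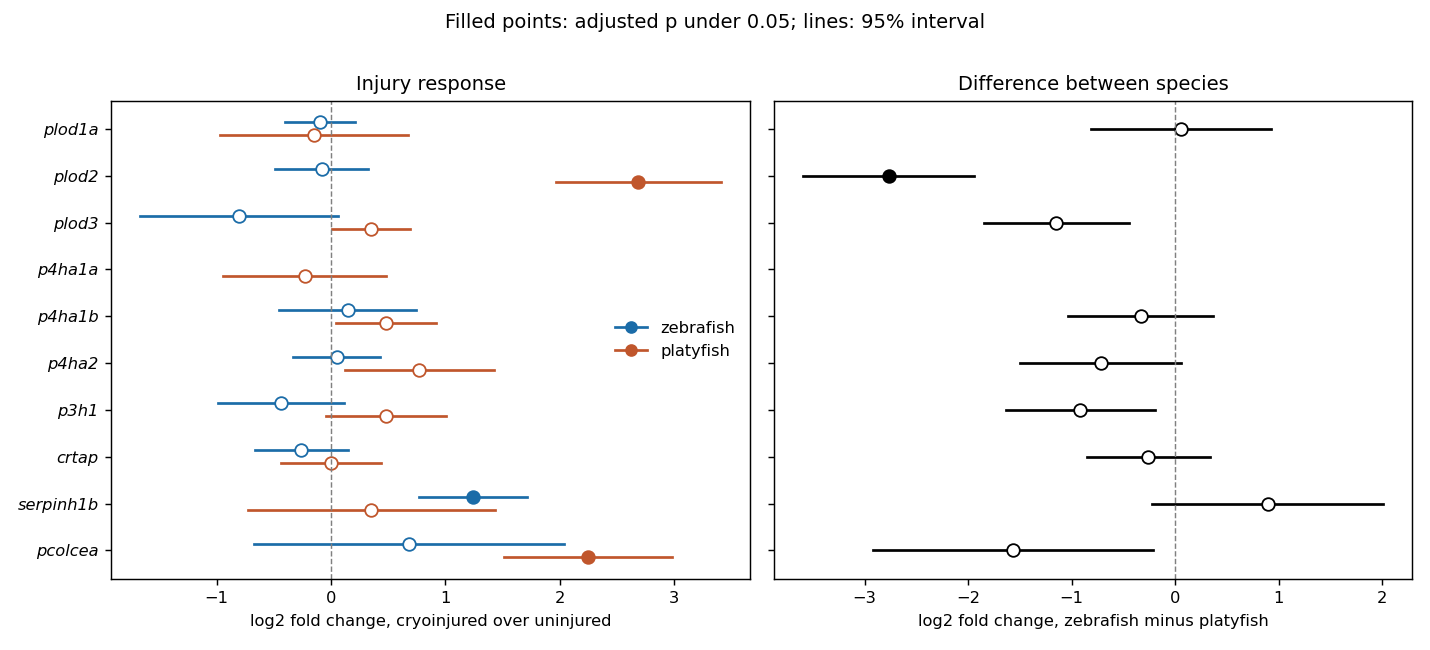
Log2 fold changes of the 10 genes after cryoinjury with 95% intervals (left, zebrafish blue and platyfish orange) and the zebrafish response minus the platyfish response (right), each from 3 pools per group, with filled points where the adjusted p was under 0.05. The filled points are plod2 (2.69) and pcolcea (2.25) in platyfish, serpinh1b (1.25) in zebrafish, and plod2 (-2.77) for the difference, and p4ha1a has no zebrafish value because it failed the filter on low counts.

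Counted together, the zebrafish genes stood close to the rest of the transcriptome. Apart from serpinh1b no tested gene had an unadjusted p under 0.05, so that 1 of 9 did, against 15.5% of all genes. A log2 fold change above 0 was found for 4 of 9, against 48.4% of all genes. The groups did not overlap for 1 of 9 with the cryoinjured pools higher (serpinh1b, background 10.8%) and for 1 of 9 with them lower (plod3, background 10.9%). The median log2 fold change of the 9 genes was -0.08, against -0.02 over all genes.

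In platyfish 8 of 10 genes had a log2 fold change above 0, against 50.8% of all genes. The unadjusted p was under 0.05 for 5 of 10, all of them higher, against 24.2% of all genes in either direction. The same 5 genes (plod2, plod3, p4ha1b, p4ha2 and pcolcea) were those whose groups did not overlap with the cryoinjured pools higher, against 16.8%. The median was 0.42, against 0.01 over all genes. As the genes were chosen with earlier results of these data known, these shares are not independent support for a response of the set. A model with the replicate number as a block called 256 platyfish genes in place of 597, and of the 10 genes only plod2.

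Summed over the 10 genes, the level in platyfish was 229, 226 and 185 CPM without injury and 446, 363 and 382 CPM after it. The 3 cryoinjured pools lay above the uninjured ones, by 1.86 times between the means. Scaling by library total, as in CPM, itself raised the median log2 fold change of all platyfish genes by 0.13. No share over all genes was computed for such sums. The sum is weighted towards abundant genes. Mean normalised counts in platyfish went from 526 to 2504 for pcolcea, from 2094 to 2927 for p4ha1b and from 137 to 883 for plod2. They did not rise for plod1a (1136 to 1025) or p4ha1a (124 to 106), and crtap stayed level (435 to 436). In zebrafish the sum was 126, 115 and 157 CPM without injury and 189.6, 147 and 148 CPM after it, with overlapping groups.

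The difference between the 2 responses was tested over 8098 genes that share a symbol between the species, and 9 of the 10 genes were among them. A shared symbol does not show that genes are orthologues. The zebrafish response of plod2 minus the platyfish response was -2.77 ± 0.38 (SE) on the log2 scale, with a 95% interval of -3.60 to -1.94 and an adjusted p of 0.00528 by edgeR's test. The platyfish fold change was thus 6.82 times the zebrafish one. This call stood in all 20 alternatives, with adjusted p-values up to 0.0257, and plod2 ranked at place 8 by p among the genes tested. Adding the replicate number to the model as a block left 83 genes called in place of 202.

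For 4 of the 9 genes the unadjusted p was under 0.05, against 19.5% of all genes, and in each of them the zebrafish response was the lower one, for which the share was 10.4%. Apart from plod2 these were plod3 (-1.15 ± 0.33, adjusted p = 0.0804 by edgeR's test), p3h1 (-0.92 ± 0.34, adjusted p = 0.155) and pcolcea (-1.57 ± 0.63, adjusted p = 0.194), which did not pass. The plod3 difference passed under DESeq2 (-1.13, adjusted p = 0.0221) and without zebrafish cryoinjured replicate 1 (-1.44, adjusted p = 0.0219). For serpinh1b the difference was 0.89 ± 0.52, towards a higher response in zebrafish, with an adjusted p of 0.373 by edgeR's test. Without platyfish cryoinjured replicate 1, the only high pool, it was 1.64 with an adjusted p of 0.0349. The remaining differences were -0.72 ± 0.36 for p4ha2, -0.34 ± 0.33 for p4ha1b, -0.26 ± 0.27 for crtap and 0.05 ± 0.40 for plod1a, with adjusted p-values from 0.297 to 0.958. The median over the 9 genes was -0.72, against -0.05 over all genes tested.

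The authors' deposited table, whose log2 fold changes are shrunken towards 0, gave adjusted p-values of 4.30e-15 for plod2 and 3.39e-11 for pcolcea in platyfish and of 9.08e-05 for serpinh1b in zebrafish. In the authors' deposited table the lowest adjusted p of the other members was 0.0889, for p4ha2 in platyfish.

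The genes that act beside these 10 were described with lists of known partners, none of which contains the 10 genes. Over all genes edgeR called 0.98% in zebrafish and 3.92% in platyfish. An unadjusted p under 0.05, in either direction, was found for 15.5% and 24.2%. DESeq2 called 528 and 1623 genes and limma voom 102 and 487. The counts per list are to be read beside these values, and those by unadjusted p take in both directions. Among the partners in prolyl hydroxylation, p4ha3, a further alpha subunit gene, was called in platyfish, 1 of 7 tested. DESeq2 and limma voom also called only p4ha3 in platyfish, where 3 of the 7 had an unadjusted p under 0.05 in edgeR's test. In zebrafish edgeR, DESeq2 and limma voom called 0 of 3, of which 1, p3h4, had an unadjusted p under 0.05 in edgeR's test. Platyfish p4ha3 stood at 0, 2.04 and 3.84 normalised counts without injury and at 49.6, 26.9 and 40.7 after it. The cryoinjured pools were clearly apart at these low levels (log2 fold change 4.36 ± 0.71 SE, adjusted p = 0.0194 by edgeR's test), and in zebrafish p4ha3 had no count in any pool. Leaving out uninjured replicate 1 (3.70) or 2 (4.45), or cryoinjured replicate 1 (4.14) or 3 (4.31), ended the p4ha3 call, with adjusted p-values up to 0.0802. The subunit p4hb, needed by every alpha subunit, had log2 fold changes of 0.25 ± 0.21 in zebrafish and -0.15 ± 0.15 in platyfish, with adjusted p-values of 0.618 and 0.579 by edgeR's test. The cyclophilin gene ppib, the partner of p3h1 and crtap, had -0.19 ± 0.11 and 0.47 ± 0.17, with adjusted p-values of 0.444 and 0.136. The 2 tested genes for hydroxylysine glycosylation in each species, both copies of colgalt1, gave no call by edgeR, DESeq2 or limma voom, and none had an unadjusted p under 0.05.

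Of the procollagen chaperones and isomerases edgeR called none of 12 in zebrafish and 1 of 13 in platyfish, with list medians of -0.03 and 0.79 on the log2 scale. An unadjusted p under 0.05 was found for 1 of these zebrafish and 7 of these platyfish genes, against 15.5% and 24.2% of all genes. DESeq2 called 0 and 5 of them, among 528 and 1623 genes that it called in all. The one called was fkbp7, which encodes a prolyl isomerase of the endoplasmic reticulum. In platyfish fkbp7 stood at 30.5, 41.9 and 65.3 normalised counts without injury and at 349.9, 141 and 229 after it. The groups did not overlap, and replicate 2 was the lowest cryoinjured pool. This was also so for plod2 and pcolcea and for the uncalled plod3, p4ha2, p3h1, crtap and serpinh1b. The fkbp7 log2 value of 2.40 ± 0.39 (SE) had an adjusted p of 0.0202 by edgeR's test, and leaving out uninjured replicate 1 (2.16) or 2 (2.34), or cryoinjured replicate 1 (2.02) or 3 (2.42), ended the call, with adjusted p-values up to 0.0814. In zebrafish fkbp7 was at -0.07 ± 0.25. The difference between species was -2.48 ± 0.50 with an adjusted p of 0.0216 by edgeR's test, and -2.45 with an adjusted p of 0.0620 with the replicate number as a block. Without zebrafish uninjured replicate 1 (-2.41), platyfish uninjured replicate 1 (-2.23), platyfish uninjured replicate 2 (-2.41) or platyfish cryoinjured replicate 3 (-2.50) the fkbp7 difference also missed the threshold, with adjusted p-values up to 0.0636.

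No gene of procollagen export from the endoplasmic reticulum was called by edgeR, DESeq2 or limma voom, among 11 tested in zebrafish and 10 in platyfish. Of these 0 and 6 had an unadjusted p under 0.05, against 15.5% and 24.2% of all genes. The 6 include sec23a, which was lower in platyfish after injury (log2 fold change -0.40). Of the procollagen proteinases and their enhancers other than pcolcea, edgeR called none of 3 in zebrafish, where 2 had an unadjusted p under 0.05 and the other tools called none, and 1 of 6 in platyfish. This was adamts2, the N-proteinase that removes the other propeptide, at 8.08, 18.4 and 12.8 normalised counts without injury and 65.2, 49.1 and 90.8 after it (log2 fold change 2.38 ± 0.42, adjusted p = 0.0235 by edgeR's test). For adamts2 the call ended without uninjured replicate 1 (2.10) or 2 (2.71), or cryoinjured replicate 1 (2.41) or 3 (2.11), with adjusted p-values up to 0.0958. Genes for cofactor supply to the hydroxylases and for the hypoxia response gave no call by edgeR, DESeq2 or limma voom among 12 in zebrafish and 7 in platyfish, of which 3 and 3 had an unadjusted p under 0.05, with medians of -0.23 and -0.36.

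The lysyl oxidases act on lysines and hydroxylysines once collagen is outside the cell. In zebrafish edgeR called 1 of 8 higher, loxl2b at 2.14 ± 0.30 (adjusted p = 0.0110 by edgeR's test). The loxl2b call failed when any of uninjured replicate 1 (2.02), uninjured replicate 3 (2.12) and cryoinjured replicate 2 (2.00) was left out. Zebrafish loxa was at 3.72 with an adjusted p of 0.0780 by edgeR's test, and DESeq2 called it. In platyfish it called 3 of 7 higher, loxa at 2.57 ± 0.27, loxl2a at 2.00 ± 0.22 and loxl2b at 1.32 ± 0.30, with adjusted p-values of 0.00611, 0.00685 and 0.0489 by edgeR's test. An unadjusted p under 0.05 in edgeR's test was found for 3 zebrafish and 5 platyfish genes of this list, and DESeq2 called 2 and 5. The loxa response in zebrafish minus that in platyfish was 1.16 ± 0.75 (SE), with an adjusted p of 0.427 by edgeR's test. The platyfish calls of loxa and loxl2a stood in all 12 alternatives, and that of loxl2b in 4 of 12. For loxl2b edgeR's test gave an adjusted p of 0.106 when the block was added and up to 0.156 with a library left out, where the call held only without cryoinjured replicate 2.

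**Figure D3:**
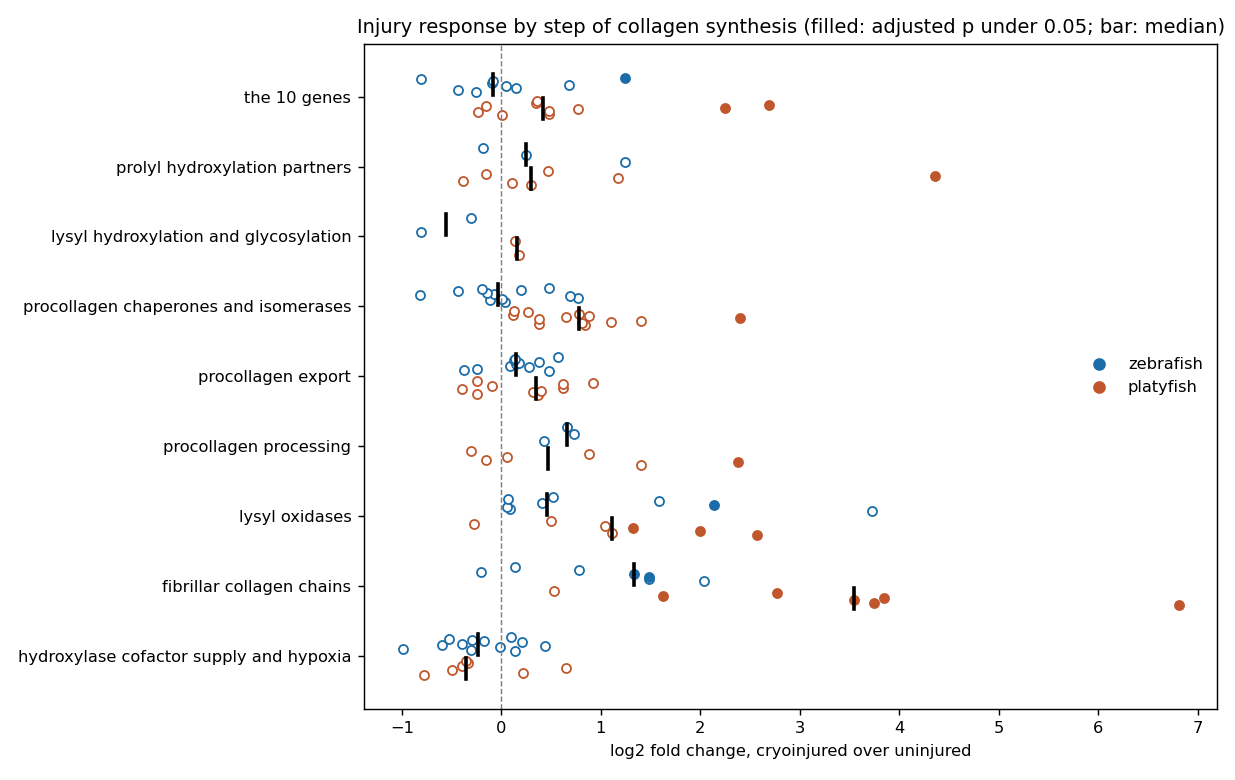
Log2 fold change after cryoinjury of every tested gene, one point per gene, arranged by step of collagen synthesis, with zebrafish in blue above platyfish in orange, filled points where the adjusted p was under 0.05 and a black bar at the median. The fibrillar chains have the highest medians in both species (1.34 in zebrafish and 3.55 in platyfish), while the 10 genes have medians of -0.08 and 0.42.

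The substrate of these proteins is fibrillar procollagen. In zebrafish edgeR called 2 of 7 tested fibrillar collagen genes higher and in platyfish 6 of 7. DESeq2 called 4 and 6 of them, limma voom 2 and 6, and 5 and 6 had an unadjusted p under 0.05 in edgeR's test. The zebrafish pools of col1a2 stood at 1698, 1317 and 1271 normalised counts without injury and at 3154, 3685 and 3984 after it, a log2 fold change of 1.34 ± 0.15 (SE, adjusted p = 0.00356 by edgeR's test). The platyfish pools of col1a2 stood at 351, 325 and 342 and at 5774, 2377 and 6467, a log2 fold change of 3.84 ± 0.37 (adjusted p = 0.00611 by edgeR's test). Neither species showed overlap, and platyfish cryoinjured replicate 2 was again the lowest of its group. The other type I chain genes had log2 fold changes of 1.49 ± 0.14 (col1a1b, adjusted p = 0.00118 by edgeR's test) and 1.48 ± 0.36 (col1a1a, adjusted p = 0.0861) in zebrafish and of 3.55 ± 0.33 (col1a1b, adjusted p = 0.00576) and 3.74 ± 0.35 (col1a1a, adjusted p = 0.00611) in platyfish. The other platyfish calls were col5a1 at 1.62 ± 0.29, col5a2a at 2.77 ± 0.42 and col11a1b. The uninjured platyfish pools held a total of 1 count of col11a1b, and the cryoinjured ones 48.7, 18.5 and 90.8 normalised counts. The col5a2a call was lost with the replicate number as a block (2.78, adjusted p = 0.0998 by edgeR's test). It was also lost without uninjured replicate 1 (2.63), cryoinjured replicate 1 (2.59) or cryoinjured replicate 3 (2.60). For col5a1 the call ended without uninjured replicate 1 (1.82) or 2 (1.44), or cryoinjured replicate 1 (1.34) or 3 (1.63), and for col11a1b without uninjured replicate 1 or 2 or cryoinjured replicate 3, those for col11a1b with adjusted p-values of 0.0580 to 0.0769 by edgeR's test.

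**Figure D4:**
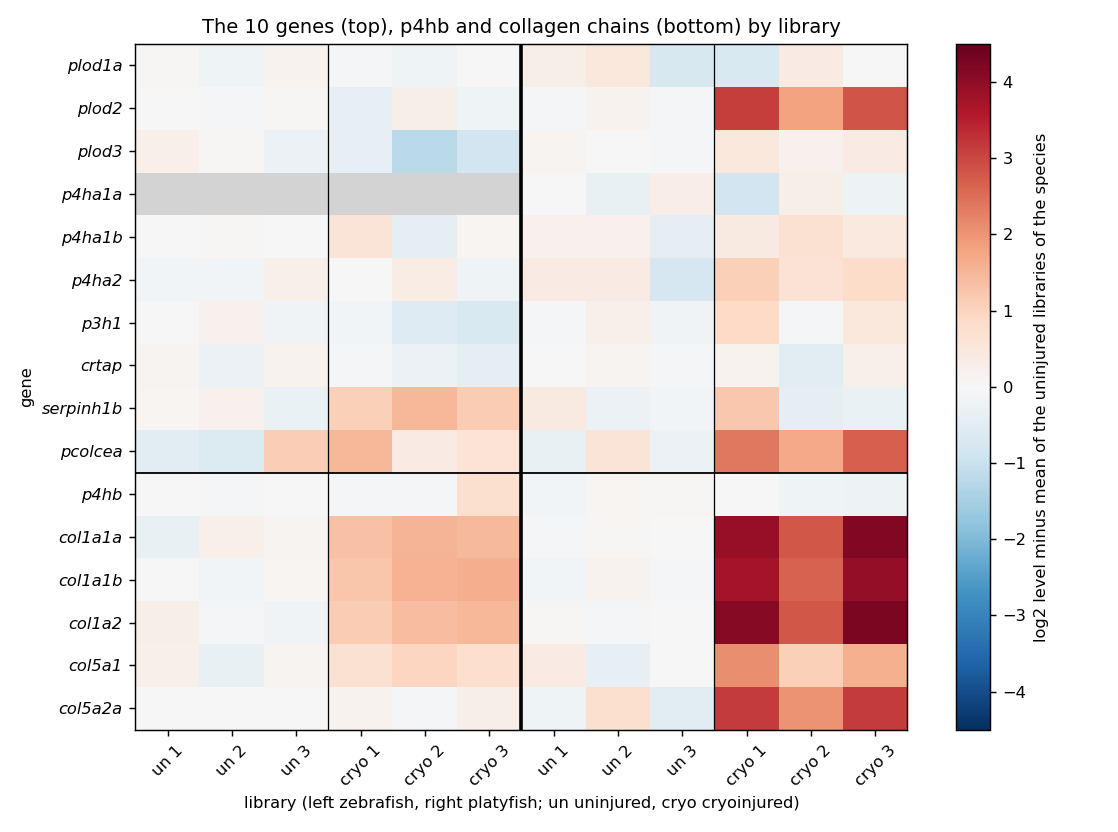
Log2 level of each gene in each library relative to the mean of the uninjured libraries of its species, with zebrafish on the left and platyfish on the right, the 10 genes above the line and p4hb and collagen chains below it, and grey where the gene failed the filter on low counts. In platyfish plod2 and pcolcea are lowest in cryoinjured replicate 2 of their group, as are col1a1a, col1a1b, col1a2, col5a1 and col5a2a (plod2 at 3.10, 1.82 and 2.82, col1a2 at 4.08, 2.80 and 4.25), while platyfish p4hb lies between -0.23 and 0.09. The uncalled plod3, p4ha2, p3h1, crtap and serpinh1b are also lowest in that pool, so that this is not particular to the called genes. In contrast plod1a, p4ha1a and p4ha1b are highest there.

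Relative to the collagen chains, counts of the 10 genes were lower after injury in both species. Counts of the 10 genes were divided by the counts of all fibrillar collagen genes of the same library. In platyfish this ratio was 5142, 5195 and 3755 per 1000 collagen counts without injury and 633, 1173 and 551 after it. The means of 4697 ± 817 (SD, n = 3) and 785 ± 338 differ by 5.98 times, and the groups did not overlap. In zebrafish it was 628, 669 and 844 without injury and 456, 367 and 314 after it, means of 714 ± 115 and 379 ± 71.7 that differ by 1.88 times, also without overlap. An exact permutation test of 3 pools against 3 cannot give a two-sided p below 0.1, so that no test is given for these ratios, which move with the collagen counts in their denominator. The summed fibrillar collagen level was itself 12.4 times higher after injury in platyfish and 2.31 times higher in zebrafish, in CPM. A gene with an unchanged level would therefore also fall in these ratios. No share over all genes was computed, so that lack of overlap here is not a result about these genes.

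The ratio to collagen differed among the genes. In platyfish plod2 stood at 109 ± 5.64 (SD, n = 3) without injury and 62.4 ± 10.1 after it per 1000 collagen counts, a ratio of means of 1.74, and pcolcea at 415 ± 133 and 183 ± 35.5, a ratio of 2.27. The other 8 genes had ratios of 5.84 (p4ha2) to 10.6 (crtap), and p4hb, at 7989 ± 646 and 733 ± 374, had 10.9. In zebrafish serpinh1b was at 29.4, 36.6 and 24.7 per 1000 collagen counts without injury and at 34.3, 40.5 and 30.0 after it, with overlapping groups. Among the other zebrafish genes pcolcea also overlapped, and plod1a, plod2, plod3, p4ha1b, p4ha2, p3h1 and crtap did not, with ratios of 1.82 (p4ha1b) to 3.51 (plod3). Zebrafish p4ha1a, which had too few counts to be tested, did not overlap either, with a ratio of 15.4. All genes of a library share 1 denominator, so that these ratios largely restate the fold changes given above.

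**Figure D5:**
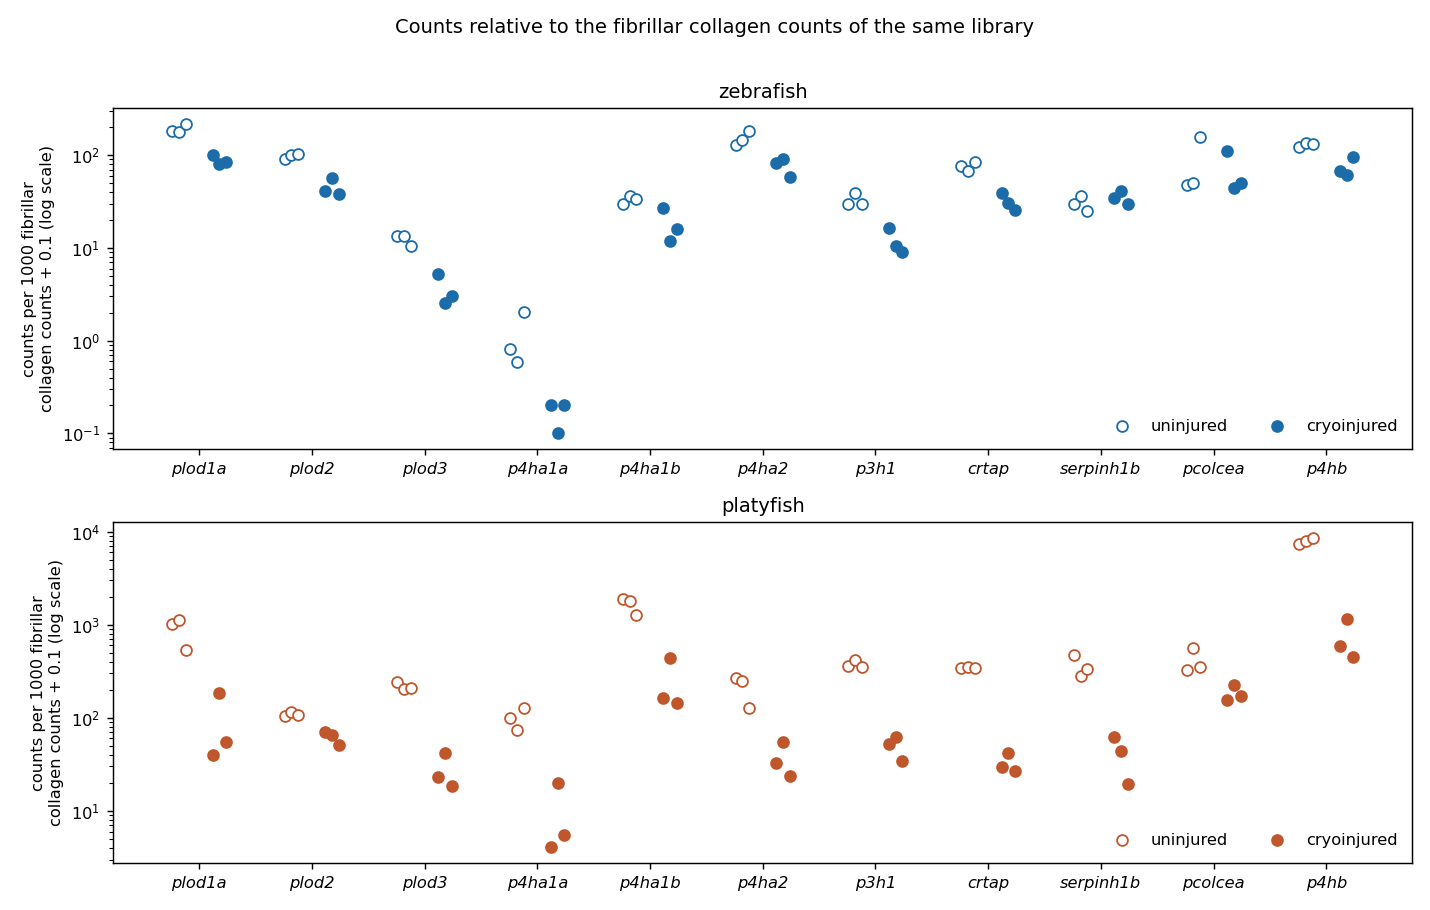
Counts of each gene per 1000 fibrillar collagen counts of the same library, plus 0.1 (log axis), with open points for uninjured and filled points for cryoinjured pools, 3 each, for zebrafish above and platyfish below. All 11 genes lie lower in the cryoinjured platyfish pools without overlap, plod2 with the smallest step (109 to 62.4 between the means), and in zebrafish serpinh1b and pcolcea overlap. The collagen level in the denominator rose 12.4 times in platyfish and 2.31 times in zebrafish, in CPM, so that a gene with an unchanged level would fall as well.

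The spread between pools differed among the 10 genes. In zebrafish the within-group SD on the log2 scale ran from 0.15 for plod1a to 0.80 for pcolcea, and in platyfish from 0.13 for plod3 to 0.69 for serpinh1b. Over the 6 platyfish libraries the mean standardised level of the 10 genes correlated at r = 0.97 with p4ha2, 0.95 with plod3, 0.89 with plod2 and 0.89 with pcolcea, and at -0.73 with p4ha1a and 0.06 with plod1a. Platyfish serpinh1b had r = 0.41 and crtap 0.34, so that the set did not move as one. These values describe libraries that also share their groups and depth, and each gene is itself part of the mean, which raises its r. The 5 genes outside the set most like that mean in platyfish were prr5a (r = 0.989), mmp15a, ptprfb, sparc and thbs1a (r = 0.987), of which mmp15a, a membrane-type matrix metalloproteinase gene (log2 fold change 1.87, adjusted p = 0.0313 by edgeR's test), and sparc, whose protein binds collagen (1.23, adjusted p = 0.0388), were called. In zebrafish the set did not move as one either, as serpinh1b had r = -0.52 and plod2 -0.11 with the mean, and the other tested genes 0.33 (p4ha1b) to 0.90 (crtap). The most alike genes there were vclb (r = 0.980), ep400, tacc1, lmod2b and hikeshi (r = 0.974), and none of these was called.

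Markers of cell types of the heart differed between the groups as well. The summed fibroblast and epicardium markers, 11 genes in each species, were at 85.9 to 99.4 CPM in uninjured and 292 to 372 CPM in cryoinjured zebrafish pools, 3.41 times higher, and at 172 to 278 and 304 to 428 CPM in platyfish, 1.80 times higher. Of those tested, 3 of 9 were called higher in zebrafish (postnb, fn1b and fn1a) and 4 of 10 in platyfish (lum, wt1b, fn1b and dpt), and postnb was at 0 to 2.76 normalised counts in all platyfish pools. Their median log2 fold changes were 2.01 in zebrafish and 0.89 in platyfish, but not all rose alike. In zebrafish dcn was at 0.23 and pdgfra at 0.43, and in platyfish tcf21 was at 0.22 and pdgfra at -0.18. The zebrafish calls of postnb and fn1b stood in all 12 alternatives, and that of fn1a in 8, failing without uninjured replicate 1 (2.43) or 3 (2.66) or cryoinjured replicate 2 (2.63) or 3 (2.90). The platyfish calls held in 3 of 12 alternatives for fn1b and in 5 of 12 for lum, both lost with the block (adjusted p = 0.149 and 0.107 by edgeR's test). Among the fits that left out a library, fn1b (2.07 to 2.75) held only without uninjured replicate 3, and lum only without uninjured replicate 3 or cryoinjured replicate 2. The platyfish calls of wt1b and dpt held in 9 of 12, failing for wt1b without uninjured replicate 2 (3.12) or cryoinjured replicate 1 (2.95) or 3 (2.76), and for dpt without uninjured replicate 1 (0.98) or 2 (0.88) or cryoinjured replicate 3 (0.95). Smooth muscle, bulbus and atrium markers were at 18.8 to 26.7 and 68.9 to 81.7 CPM in zebrafish and at 90.8 to 196 and 205 to 436 CPM in platyfish, without overlap in either. The list medians were 0.64 and 0.97 on the log2 scale, but its genes differed. In zebrafish tagln was called (2.47), while acta2 was at 0.35 and myh6 at -1.10. In platyfish myh11a was called (1.56), and myh6 was at 0.07. Macrophage and neutrophil markers were at 552 to 781 and 1189 to 1509.5 CPM in zebrafish, without overlap, and overlapped in platyfish. The zebrafish genes of this list did not all rise, and their median log2 fold change was 0.75. Those called were marco (1.70) and cd74a (0.83), while lcp1 was at 0.12, csf1ra at -0.0047 and coro1a at -0.14. Red blood cell markers overlapped in both species. Endothelial markers were at 495 to 593 and 657 to 848 CPM in zebrafish and overlapped in platyfish, and edgeR called 0 of 8 and 0 of 7 tested endothelial genes. Cardiomyocyte markers were lower in cryoinjured zebrafish pools, at 48042 to 58812 CPM against 59129 to 67668, and overlapped in platyfish. In zebrafish edgeR called 1 of 6 smooth muscle and 2 of 7 macrophage genes higher. Of 9 cardiomyocyte genes it called 3, all lower, actc1a (-0.86), cmlc1 (-0.52) and myl7 (-0.40). The call of cmlc1 held in 4 of 12 alternatives and that of myl7 in 5, and both were lost with scaling by library total. Those of tagln and marco held in all 12 and that of cd74a in 8. In platyfish edgeR called 1 of 5 smooth muscle, 0 of 7 macrophage and 0 of 6 cardiomyocyte genes, and the myh11a call held in 9 of 12. CPM use library totals, a scaling that raised the median log2 fold change of all genes by 0.18 in zebrafish and 0.13 in platyfish. The part of these marker shifts in the results for plod2, pcolcea and serpinh1b was not tested.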

How the data were processed

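Poly(A) RNA of 12 ventricle pools was sequenced as stranded libraries, per the labels' protocols. The deposited raw counts per gene come from HISAT2 2.2.1 and featureCounts 2.0.1, per the submitters' processing notes, which name the build GRCz11 for both species. The platyfish build, annotation release and strand setting are not given in the sources used here, so that overlapping and antisense genes cannot be separated. The authors' normalised counts (a signal per gene, equal to the raw counts times 1 constant per library) and their log2 fold changes, Wald score and p-values came from DESeq2 1.38.3, per the submitters' processing notes and the file headers, and served only for comparison.

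From the raw counts, edgeR 4.0.16 (R 4.3.3) was run per species with filterByExpr, TMM scaling and a robust quasi-likelihood fit. The threshold was a Benjamini-Hochberg adjusted p of 0.05, and SE is the log2 fold change over the root of F. Alternatives were DESeq2 1.42.0, limma 3.58.1 voom, other scalings, no filter, the replicate number as a block and each library left out. The difference between species was a contrast over symbols that are unique in each table, with the library sizes of each species. The fits were also run on simulated counts with planted changes, as a check of the code only. No error rate for these data is drawn from that run.

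The 10 genes, and the lists of partners and markers, were chosen with earlier results of these data known. List genes were named when called, at most 6 per list and comparison with the largest change, and p4hb, ppib and the 3 type I collagen genes in any case. Some list genes that were not called are named as well, outside this rule. The 5 genes most like the mean pattern needed at least 100 normalised counts. The labels' batch field repeats the replicate number, and pools of the same number were taken as pairs for the block. Whether such pools shared a day or clutch is not stated. Deviations from the group means correlated across genes at 0.134, 0.140 and 0.0123 for the same number in zebrafish and at -0.0854, -0.184 and -0.178 in platyfish. Groups were taken from the sample titles, since the treatment field of the cryoinjured platyfish pools names zebrafish; the gene identifiers of their columns are those of platyfish. No sequence is shown.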

Additional observations from a re-analysis of the deposited data

Results flagged for a closer look

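The test of the difference itself, the zebrafish response minus the platyfish response in edgeR's quasi-likelihood model, passed for 7 of the genes named. Among the 10 genes it was plod2, at -2.77 ± 0.38 (SE) on the log2 scale. Among the fibrillar collagen chains it was col1a1a at -2.26 ± 0.44, col1a1b at -2.06 ± 0.36, col1a2 at -2.51 ± 0.40 and col5a2a at -2.64 ± 0.44, all with the larger response in platyfish. The isomerase gene fkbp7 differed by -2.48 ± 0.50, and the fibronectin gene fn1a, a fibroblast and epicardium marker, by 2.26 ± 0.50, with the larger response in zebrafish. List genes were named partly because they passed this test, so that 7 is not a share of a fixed set. Over all 8098 genes tested 2.49% passed.

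Some of these calls depended on the setting. That of col1a1a was lost under limma voom (-2.14) and when zebrafish uninjured replicate 3 (-2.20) or one of platyfish uninjured replicates 1 (-2.20) and 2 (-2.28) was left out. That of col5a2a was lost with the replicate number as a block (-2.65). That of fkbp7 was lost in 5 of 20 alternatives, which are given above with the chaperones and isomerases. That of fn1a was lost under limma voom (2.32) and without zebrafish uninjured replicate 1 (1.94), zebrafish uninjured replicate 3 (2.18), zebrafish cryoinjured replicate 2 (2.14), platyfish cryoinjured replicate 1 (2.24) or platyfish cryoinjured replicate 2 (2.10). The calls of plod2, col1a1b and col1a2 stood in all 20 alternatives run.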

How the results depend on the processing

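Of 411 alternative values for the 28 results on the 10 genes, 374 kept direction and side of the threshold, 9 lost the call, 3 gained one and 25, over 9 results, had the opposite sign, 0 of them called in either setting. In zebrafish 132 genes were called, 528 under DESeq2, 229 with scaling by library total, 517 without the filter, and 29 to 288 with a library left out (fewest without cryoinjured replicate 2, most without cryoinjured replicate 1). In platyfish 597 were called, 1623 under DESeq2, 256 with the replicate number as a block, and 27 to 1008 with a library left out (fewest without uninjured replicate 1, most without uninjured replicate 3). For the difference 202 were called, 679 under DESeq2, 123 with scaling by library total, 83 with the block, and 66 to 480 with a library left out (fewest without platyfish uninjured replicate 2, most without zebrafish cryoinjured replicate 1). Of the 10 genes, 0 to 1 was called in zebrafish, 0 to 2 in platyfish and 1 to 2 for the difference with a library left out, 1 in platyfish with the block and 2 for the difference under DESeq2. The block, which rests on pairing by the labels' batch field, changed only the platyfish call of pcolcea (2.27) among these genes. Scaling by library total moved the median of all genes by 0.18 in zebrafish and 0.13 in platyfish. The calls were then 224 higher and 5 lower in zebrafish in place of 91 and 41, 544 and 104 in platyfish in place of 411 and 186, and 72 and 51 for the difference in place of 92 and 110. With that scaling zebrafish plod1a (0.080), plod2 (0.075) and fkbp7 (0.089) and platyfish plod1a (0.018) turned positive. The cause of these shifts was not tested. Platyfish crtap, at 0.00, turned negative under DESeq2 (-0.019), limma voom (-0.032), DESeq2 size factors (-0.015), no filter (-0.0040) and the block (-0.025), and platyfish marco turned positive under limma voom (0.13) and the block (0.087). With a library left out, uncalled values crossed 0 in zebrafish for plod2 (-0.29 to 0.046), p4ha1b (-0.15 to 0.37), p4ha2 (-0.11 to 0.18), p4hb (-0.067 to 0.38), fkbp7 (-0.24 to 0.14) and loxl2a (-0.41 to 0.70). In platyfish they did for plod1a (-0.44 to 0.086), p4ha1a (-0.55 to 0.018), crtap (-0.13 to 0.19), serpinh1b (-0.39 to 0.63) and marco (-0.64 to 0.60). For the difference they did for plod1a (-0.18 to 0.34), cmlc1 (-0.21 to 0.16), lum (-2.18 to 0.21) and dpt (-0.20 to 0.18). With 3 pools per group, and zebrafish p4ha1a at 15 and 2 counts over the groups, small differences were not detectable.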
